A study of Mus musculus with 15 samples.

Results

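The comparison described here asks where the hippocampal transcript response to losing the glucocorticoid receptor (GR, the product of Nr3c1) together with the mineralocorticoid receptor (MR, the product of Nr3c2) differs from the sum of the responses to losing each alone. It uses the 15 of 15 arrays of the series as a 2 x 2 layout of 4 groups: 3 GRMREmx1-cre mice without either receptor, 4 GREmx1-cre mice without GR, 4 MREmx1-cre mice without MR, and 4 dflox control mice. The mice were C57BL/6 males of about 2.5 months, and RNA came from the whole hippocampus of both hemispheres. GRMREmx1-cre and dflox mice carry floxed alleles of both receptor genes, dflox without Cre. By the design as read, GREmx1-cre mice carry the floxed GR allele but no floxed MR allele, and MREmx1-cre mice the floxed MR allele but no floxed GR allele. All 3 knockout lines carry Emx1-Cre and the dflox group does not, so that Cre itself and receptor loss cannot be told apart in the single changes. For each gene, the departure is the log2 difference of GRMREmx1-cre from dflox minus the sum of the log2 differences of GREmx1-cre and MREmx1-cre from dflox. An effect of Cre itself, present in 3 groups and absent from dflox, would thus enter the departure with a negative sign. A positive departure means that the joint-loss level lies above the sum of the single losses, and a negative one that it lies below.

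GR and MR are nuclear receptors that bind corticosteroid hormones and then act as transcription factors on shared DNA elements. MR has the higher affinity and is largely occupied at resting hormone levels, while GR fills during stress and at the daily peak. Both are strongly present in hippocampal neurons, where they set excitability, stress adaptation and the upkeep of dentate granule cells. Emx1-Cre acts in the lineage that gives rise to excitatory neurons and astrocytes of the dorsal forebrain, so that microglia, vessels and most GABAergic neurons keep their receptors.

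Each array's 75th percentile of intensity lay between 821 and 1027 units, and 28083 to 30206 probes per array were well above background. Markers of hippocampal subfields (Prox1, Wfs1, Rgs14 and Grik4) were well above background on 15 of 15 arrays. Levels below are log2 intensities relative to the array's 75th percentile, and cannot be set against each other between genes. The 4 slides, scanned within 1 day, held a single genotype each, and differences between slides and between genotypes cannot be told apart. In whole tissue, fewer cells of a type and less RNA per cell cannot be told apart either. Nothing states that mice of a group were from separate litters, and p-values measure only the spread between these samples. In 2 libraries the mix of neighbouring tissue stood apart: the choroid plexus genes averaged -4.14 (log2, relative to all arrays) in MREmx1-cre replicate 2, against -0.532 to 1.21 elsewhere. GREmx1-cre replicate 1 was the highest of its group for thalamus and CA2 genes and the lowest for fibroblast genes. Without these 2 arrays 178 genes departed from the sum in place of 295.

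Nr3c1 was low in every array of the lines lacking GR, and its change was additive. Its levels were -0.08, -0.03 and 0.09 in GRMREmx1-cre, -0.66, -0.53, -0.64 and -0.58 in GREmx1-cre, 2.28, 2.16, 2.08 and 2.17 in MREmx1-cre, and 1.5, 1.79, 1.77 and 1.49 in dflox. No array of a group overlapped with another group. Nr3c1 was lower in GRMREmx1-cre (-1.64 ± 0.08 log2 against dflox, adjusted p = 7.42e-07) and in GREmx1-cre (-2.24 ± 0.08, adjusted p = 1.36e-08), and higher in MREmx1-cre (0.54 ± 0.08, adjusted p = 0.00165). The rise in MREmx1-cre recurred between the lines that lack GR, as 0.60 ± 0.08 in GRMREmx1-cre against GREmx1-cre (adjusted p = 0.000646), a comparison in which 16.2% of all genes changed, 9.23% higher and 6.92% lower. The departure was 0.06 ± 0.11 with a 95% confidence interval of -0.18 to 0.31. Errors are standard errors (SE) of the fit, and adjusted p-values are limma's after Benjamini-Hochberg adjustment over all genes tested.

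Nr3c2 gave dim signal, and its brightest probe did not follow the MR genotype. The levels of that probe were -3.71, -3.72 and -4.01 in GRMREmx1-cre, -3.09, -3.15, -3.06 and -3.04 in GREmx1-cre, -3.76, -3.68, -3.59 and -3.46 in MREmx1-cre, and -3.45, -3.36, -3.65 and -3.57 in dflox. GREmx1-cre stood above every other array, while MREmx1-cre and dflox overlapped. The change in MREmx1-cre was -0.11 ± 0.09 (adjusted p = 0.48), and whether the probe lies in the deleted part of the gene is not known here, so that it does not check the MR labels. Nr3c2 was higher in GREmx1-cre (0.42 ± 0.09, adjusted p = 0.0212) and lower in GRMREmx1-cre (-0.31 ± 0.09, adjusted p = 0.0394), a departure of -0.62 ± 0.13 (adjusted p = 0.0394). By the design as read, only GREmx1-cre carries no floxed MR allele, and this allele and the loss of GR cannot be told apart here. The other probes of Nr3c2 gave -0.77 and -0.38 in MREmx1-cre, with departures of -0.06 and -0.07, and the call was lost in 12 of the 15 fits that leave out 1 array.

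Of 22862 genes tested, 295 departed from the sum at an adjusted p under 0.05, which is 1.29%. The joint-loss level lay above the sum for 117 genes (0.512%) and below it for 178 (0.779%), and 3883 genes (17%) had an unadjusted p under 0.05. GRMREmx1-cre was the group farthest from the others for 77 of the 117 genes above the sum. GREmx1-cre was the farthest for 104 of the 178 genes below it, against 42 for GRMREmx1-cre, 13 for MREmx1-cre and 19 for dflox. A gene above background in 1 group alone could enter the test, so that these counts can depend on the filter. How often each group is the farthest over all genes is not given here, so that these counts have no background share to be read against. The departure reached 2-fold for 21 genes above and 39 below the sum. Over all genes its median was -0.01 with a median SE of 0.14. The calls depended on single arrays: 83 genes remained without GRMREmx1-cre replicate 2, 104 without GRMREmx1-cre replicate 3, 125 without MREmx1-cre replicate 3 and 434 without MREmx1-cre replicate 1. With each array left out in turn, 69 genes kept their call throughout (25 above and 44 below).

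**Figure D1:**
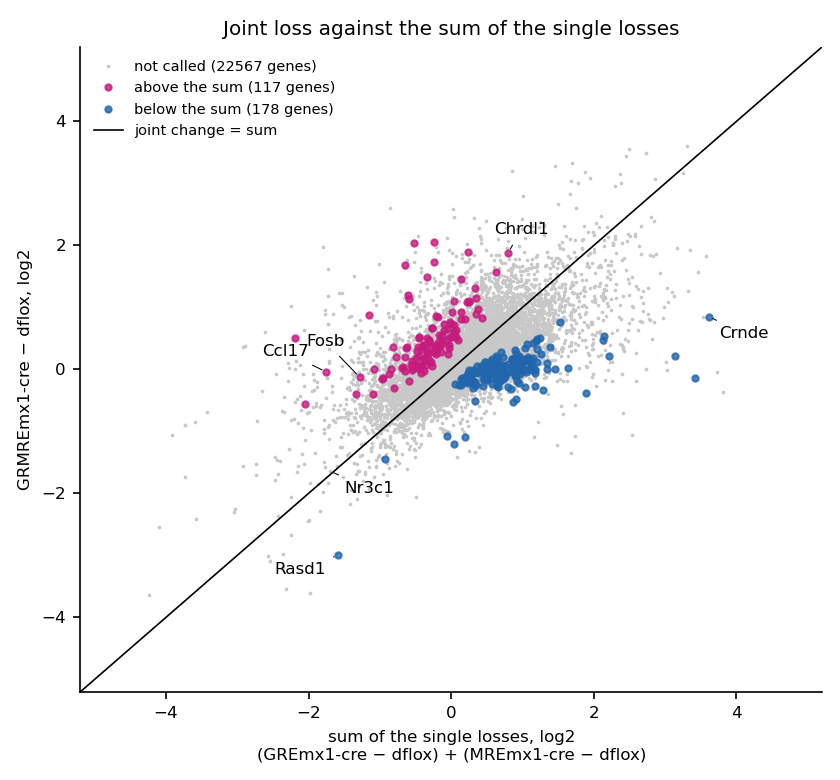
Each point is a gene, with the sum of the log2 changes in GREmx1-cre and MREmx1-cre against dflox on the x axis and the log2 change in GRMREmx1-cre against dflox on the y axis. The line marks a joint change equal to the sum; the 117 coloured genes above it and the 178 below it departed at an adjusted p under 0.05, and 3 genes lie outside the plotted range of 5.2 log2 units.

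Many calls were in dim probes. Of 8236 genes with a mean level under -3, 158 departed (1.92%), against 137 of 14626 brighter genes (0.937%). Among olfactory receptor genes, which have no established role in hippocampal neurons, 21 of 300 departed (7%), 10 above and 11 below the sum. Of the 10, at least Olfr73, Olfr218 and Olfr1044 entered the test only with the GRMREmx1-cre arrays. Of the 51 departing genes with several tested probes, 8 had probes that differed in sign.

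Most genes that corticosteroid receptors are known to induce were lower in GRMREmx1-cre, and Rasd1 was the 1 that departed. Over all genes, 16.3% changed in GRMREmx1-cre, 3.16% in GREmx1-cre and 6.81% in MREmx1-cre against dflox. Of 24 such genes tested, 17 fell and 1 (Pdk4) rose in GRMREmx1-cre, where 4.84% and 11.4% of all genes did. In GREmx1-cre 4 fell and 1 (Hif3a) rose (all genes: 0.892% and 2.27%), and in MREmx1-cre 9 fell (all genes: 2.6%). The median change was -0.51 in GRMREmx1-cre, -0.15 in GREmx1-cre and -0.34 in MREmx1-cre, and the median departure was -0.01, with -0.01 for all genes. For 6 of the 18 that changed in GRMREmx1-cre, the interval of the departure lay within 1.5-fold in either direction. This range held the interval for 61.1% of all genes, and for 59.6% of the 3716 genes that changed in GRMREmx1-cre.

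Rasd1, a dexamethasone-induced Ras-like GTPase, fell beyond the sum. Its levels were -2.40, -2.37 and -1.54 in GRMREmx1-cre, 0.96, 0.88, 0.75 and 0.96 in GREmx1-cre, -1.03, -0.88, -0.24 and -0.58 in MREmx1-cre, and 1.12, 0.95, 0.58 and 0.93 in dflox. Every GRMREmx1-cre array was below every MREmx1-cre array, and GREmx1-cre overlapped with dflox. Rasd1 was 8.0-fold lower in GRMREmx1-cre than in dflox (-3.0 ± 0.22, adjusted p = 9.74e-06) and 2.98-fold lower in MREmx1-cre (-1.58 ± 0.20, adjusted p = 0.000867), while GREmx1-cre gave -0.01 ± 0.20 (adjusted p = 0.993). GRMREmx1-cre was also below MREmx1-cre (-1.42 ± 0.22, adjusted p = 0.00449), where 2.98% of all genes changed (2.35% higher, 0.625% lower). The departure of -1.41 ± 0.30 (adjusted p = 0.0448) kept its size without single arrays (-1.70 to -1.27), but its call was lost in 13 of those 15 fits, on the linear scale, with no filter on dim probes and without both arrays that stand apart.

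The other induced genes did not depart at this threshold. Errfi1, a feedback inhibitor of epidermal growth factor receptors, fell in every line: by 0.78 in GRMREmx1-cre (adjusted p = 0.000114), by 0.36 in GREmx1-cre (adjusted p = 0.0254) and by 0.73 in MREmx1-cre (adjusted p = 0.000251). Its departure was 0.31 with an interval of 0.07 to 0.55. Mt1, a metallothionein, fell by 0.53 in GRMREmx1-cre (adjusted p = 0.000305), with a departure of -0.10 (interval -0.30 to 0.10). Mt1 lies 125 tested genes from Nr3c2, and the MR allele of GREmx1-cre and the loss of GR cannot be told apart for it. Sgk1, a kinase that is a classic target of both receptors, fell by 1.09 in GRMREmx1-cre, by 0.83 in GREmx1-cre and by 0.71 in MREmx1-cre (adjusted p = 0.00243, 0.0261 and 0.0322). Its departure of 0.46 had an interval of -0.11 to 1.03, too wide to place it. Fkbp5, a co-chaperone that limits GR activity, was chosen after its values were seen: it fell by 1.83 in GRMREmx1-cre (adjusted p = 0.000269) and by 1.48 in MREmx1-cre (adjusted p = 0.00143), with a departure of -0.70 (interval -1.37 to -0.03, adjusted p = 0.276). The other probes of Fkbp5 gave smaller departures of -0.59 and -0.25.

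Activity-regulated genes, the early-response genes that neuronal firing induces, had mostly positive departures. Of 25 tested, 24 had a positive departure, with a median of 0.62 against -0.01 for all genes, but only Fosb was called (all genes above the sum: 0.512%). An unadjusted p under 0.05 was found for 15. The list's median change was -0.11 in GRMREmx1-cre, -0.34 in GREmx1-cre and -0.37 in MREmx1-cre, against a median sum of -0.75. The mean of the list relative to all arrays was 0.06, 0.09 and 0.06 in GRMREmx1-cre, -0.15, -0.05, -0.03 and -0.34 in GREmx1-cre, -0.15, -0.09, -0.21 and -0.18 in MREmx1-cre, and -0.12, 0.48, 0.35 and 0.27 in dflox. Every GRMREmx1-cre array was above every single-loss array, and dflox replicate 1 lay with the single-loss lines, apart from the other 3 controls. Without that array 7 of the genes were called and the median was 0.75, and without dflox replicate 2 the median was 0.465. Without members beside Nr3c2, such as Junb and Ier2, 22 genes had a median of 0.50.

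The promoters of Fosb, which departed, and Ptgs2, which was additive, are shown because both genes belong to this list. The sequences are RefSeq's (GRCm38.p6), from 250 bases before to 50 bases after the start of the gene, with matches of TGACG in capitals, the core of the element bound by the activity-dependent factor CREB. For Fosb (chr7:19309996-19310295, minus strand) the match is on the sense strand, and for Ptgs2 (chr1:150099781-150100080, plus strand) it is on the antisense strand and so reads CGTCA.
Fosb: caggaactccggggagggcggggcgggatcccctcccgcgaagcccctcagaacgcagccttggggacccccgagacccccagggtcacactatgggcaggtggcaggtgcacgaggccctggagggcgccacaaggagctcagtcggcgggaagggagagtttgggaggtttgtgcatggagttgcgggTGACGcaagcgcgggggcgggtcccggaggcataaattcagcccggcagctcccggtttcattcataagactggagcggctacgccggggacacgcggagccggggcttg
Ptgs2: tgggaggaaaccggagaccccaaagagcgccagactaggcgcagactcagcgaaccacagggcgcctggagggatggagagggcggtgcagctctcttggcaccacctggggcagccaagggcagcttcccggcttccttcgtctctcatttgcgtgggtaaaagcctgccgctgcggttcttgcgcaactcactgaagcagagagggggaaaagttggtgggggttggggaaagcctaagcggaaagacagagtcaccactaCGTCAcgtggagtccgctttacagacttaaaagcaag
The match lies 60 to 56 bases before the start in Fosb and at bases 14 to 18 in Ptgs2. On either strand TGACG is in 20.8% of 32851 promoter windows of this length. The full palindrome TGACGTCA (1.79% of windows), ACANNNTGT, the spacing of the receptors' shared element (6.85%), and TATAAA (13.6%) had no match in either window. TGACG is a part of TGACGTCA.

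Fosb, an AP-1 subunit, had levels of -2.61, -2.50 and -2.02 in GRMREmx1-cre, -2.88, -2.74, -2.61 and -3.09 in GREmx1-cre, -2.86, -2.91, -3.14 and -2.91 in MREmx1-cre, and -2.71, -2.30, -2.04 and -1.96 in dflox. GRMREmx1-cre overlapped with dflox, and both single-loss lines were mostly below them. Fosb fell by 0.71 ± 0.17 in MREmx1-cre (adjusted p = 0.0277), and gave -0.58 ± 0.17 in GREmx1-cre (adjusted p = 0.087) and -0.12 ± 0.18 in GRMREmx1-cre (adjusted p = 0.707). The departure of 1.16 ± 0.25 (adjusted p = 0.0465) was lost in 12 of the 15 fits without 1 array and under quantile, median and cyclic loess scaling. Larger values in the list did not pass the test: Fos had a departure of 1.87 (adjusted p = 0.0996), Egr2 of 1.78 (0.0881) and Arc, which encodes a synaptic cytoskeletal protein, of 1.32 (0.0848).

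Ptgs2, the inducible cyclooxygenase, fell additively. Its levels were -3.40, -3.0 and -3.38 in GRMREmx1-cre, -2.52, -2.28, -2.62 and -2.62 in GREmx1-cre, -2.96, -3.01, -3.23 and -3.29 in MREmx1-cre, and -2.08, -2.18, -2.45 and -2.23 in dflox. GRMREmx1-cre and MREmx1-cre overlapped and lay below the other groups. Ptgs2 fell by 1.03 ± 0.13 in GRMREmx1-cre (adjusted p = 0.00026) and by 0.89 ± 0.12 in MREmx1-cre (adjusted p = 0.000921), with a departure of 0.14 and an interval of -0.24 to 0.51. Pim1, a survival kinase, was the only gene of the list with a negative departure (-0.88, adjusted p = 0.247).

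Chrdl1, a secreted BMP antagonist that astrocytes make, rose far beyond the sum. Its levels were -0.43, -0.24 and -0.38 in GRMREmx1-cre, -1.92, -1.95, -1.79 and -1.75 in GREmx1-cre, -1.79, -1.87, -1.88 and -1.68 in MREmx1-cre, and -2.52, -2.13, -2.12 and -2.13 in dflox. All GRMREmx1-cre arrays were above all others, and both single-loss lines above dflox. Chrdl1 was 3.68-fold higher in GRMREmx1-cre than in dflox (1.88 ± 0.10, adjusted p = 7.42e-07), where the sum of a rise of 0.38 ± 0.09 in GREmx1-cre (adjusted p = 0.0433) and of 0.42 ± 0.09 in MREmx1-cre (adjusted p = 0.0157) gave 0.80. The departure was 1.08 ± 0.13 (adjusted p = 0.00452), a second probe gave 0.73, and no single array ended the call (1.03 to 1.18).

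Gpr34, a lysophosphatidylserine receptor of microglia, moved in opposite directions in the single losses. Its levels were -0.46, -0.41 and -0.57 in GRMREmx1-cre, -1.36, -1.26, -1.24 and -1.39 in GREmx1-cre, -0.63, -0.66, -0.76 and -0.66 in MREmx1-cre, and -1.11, -0.96, -0.98 and -0.95 in dflox. No array overlapped with another group. Gpr34 rose by 0.52 ± 0.06 in GRMREmx1-cre (adjusted p = 0.000177) and by 0.32 ± 0.06 in MREmx1-cre (adjusted p = 0.00427), and fell by 0.31 ± 0.06 in GREmx1-cre (adjusted p = 0.0122). The departure was 0.51 ± 0.08 (adjusted p = 0.013) and held without any single array.

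Vim, the intermediate filament vimentin of reactive astrocytes and vessels, was lower in GREmx1-cre and departed above the sum. Its levels were 2.13, 2.61 and 2.34 in GRMREmx1-cre, 1.71, 1.91, 2.03 and 2.04 in GREmx1-cre, 2.15, 2.12, 1.90 and 2.03 in MREmx1-cre, and 2.37, 2.30, 2.39 and 2.27 in dflox. GRMREmx1-cre spanned the dflox arrays. Vim fell by 0.41 ± 0.10 in GREmx1-cre (adjusted p = 0.0458) and gave 0.03 ± 0.11 in GRMREmx1-cre (adjusted p = 0.905). Its departure of 0.72 ± 0.15 (adjusted p = 0.04) was lost in 13 of the fits without 1 array. Genes of meningeal and perivascular fibroblasts, which also make vimentin, had a median departure of 0.31 with 10 of 11 positive, 4 at an unadjusted p under 0.05 and 0 called by limma, and their part in the value for Vim was not tested. Their median was 0.15 without GREmx1-cre replicate 1 and 0.47 without dflox replicate 2.

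Ccl17, a chemokine of dendritic cells that some hippocampal neurons also make, was lowest where GR alone was lost. Its levels were -2.05, -1.70 and -1.60 in GRMREmx1-cre, -3.52, -3.02, -2.55 and -3.14 in GREmx1-cre, -2.27, -2.24, -2.34 and -1.89 in MREmx1-cre, and -1.88, -1.66, -1.70 and -1.74 in dflox. Every GREmx1-cre array was below every array of the other groups. Ccl17 fell by 1.32 ± 0.17 in GREmx1-cre (adjusted p = 0.00259), gave -0.04 ± 0.19 in GRMREmx1-cre (adjusted p = 0.92), and departed by 1.72 ± 0.26 (adjusted p = 0.00915), with no single array ending the call. Ccl17 lies 136 tested genes from Nr3c2 on the same chromosome, so that the MR allele of GREmx1-cre and the loss of GR cannot be told apart here.

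The remaining genes above the sum that the naming rule took were dim or had no known hippocampal role. For Loxhd1, a stereocilia protein of inner ear hair cells, the levels were -6.07, -5.44 and -5.56 in GRMREmx1-cre, and no array of the other groups was well above background. It was at least 1.38-fold higher in GRMREmx1-cre than in GREmx1-cre, at least 1.72-fold than in MREmx1-cre and at least 1.52-fold than in dflox. Tnfsf12, the cytokine TWEAK, was likewise above background only in GRMREmx1-cre, at least 1.53-fold over dflox. Both genes entered the test through GRMREmx1-cre, so that the size of their departure is not known. The olfactory receptor genes Olfr73, Olfr218 and Olfr1044 were not well above background on any GREmx1-cre or MREmx1-cre array. They were at least 1.36-fold, 3.05-fold and 1.39-fold higher in GRMREmx1-cre than in MREmx1-cre. Against GREmx1-cre the bounds were 1.10-fold, 2.53-fold and 1.11-fold, and Olfr1044 was at least 1.23-fold over dflox. Olfr1044 was above background only in GRMREmx1-cre, and Olfr73 and Olfr218 also on 1 dflox array. These olfactory genes too entered the test only with the GRMREmx1-cre arrays, so that the size of their departure is not known. Olfr1101, Olfr1394 and Olfr398 departed by 2.04, 1.84 and 0.92. Ghrl, which encodes the stomach hormone ghrelin, rose by 1.46 ± 0.20 in GRMREmx1-cre (adjusted p = 0.000466) against a sum of 0.14. Its departure was 1.33 ± 0.27 (adjusted p = 0.0394). Plcz1, a sperm phospholipase, and Mbd5, a methyl-CpG-binding domain protein, departed by 1.02 and 0.97. Prodh2, a hydroxyproline dehydrogenase of liver, departed by 0.95 with one probe and gave -0.59 with the other. The call was lost in 12 of the 15 fits without 1 array for Ghrl, Olfr1394 and Prodh2. For Plcz1 it was lost in 11, for Olfr73 in 9 and for Olfr218 in 8. Olfr1101 and Olfr398 lost it in 5, Tnfsf12 in 4, Mbd5 in 3, Olfr1044 in 2 and Loxhd1 in 0.

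**Figure D2:**
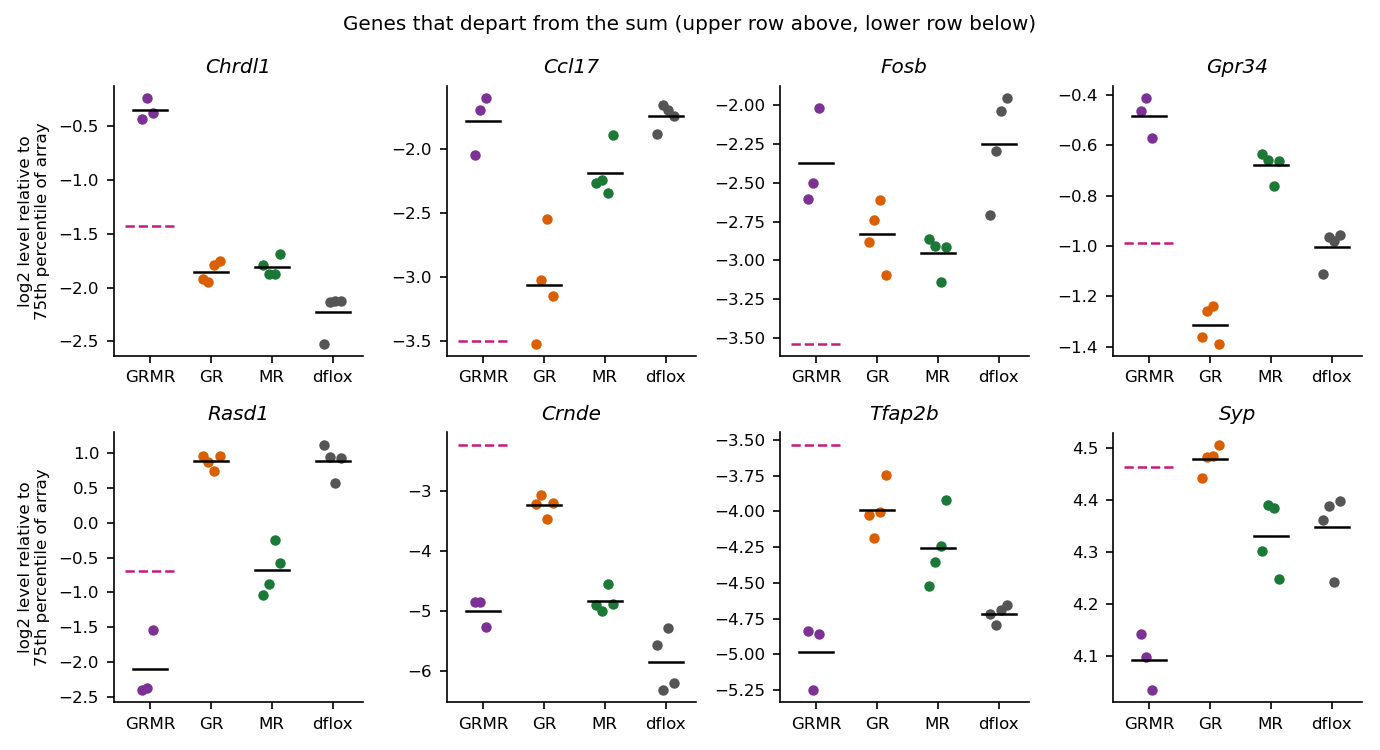
Log2 level relative to the array's 75th percentile for 8 genes that departed, 1 point per array (3 GRMR, which is GRMREmx1-cre, then 4 each of GR, which is GREmx1-cre, MR, which is MREmx1-cre, and dflox), with black bars at the group means. The dashed line is the GRMREmx1-cre level expected if the joint change were the sum of the single ones; the points of Chrdl1, Ccl17, Fosb and Gpr34 lie above it and those of Rasd1, Crnde, Tfap2b and Syp below it.

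Below the sum, Crnde was highest where GR alone was lost. The levels of this long noncoding RNA, known for its high levels in tumours, were -4.85, -4.84 and -5.26 in GRMREmx1-cre, -3.20, -3.06, -3.47 and -3.20 in GREmx1-cre, -4.89, -5.0, -4.54 and -4.88 in MREmx1-cre, and -5.56, -6.31, -5.27 and -6.20 in dflox. GREmx1-cre stood above all other arrays. Crnde rose by 2.60 ± 0.21 in GREmx1-cre (adjusted p = 4.71e-05), by 1.01 ± 0.21 in MREmx1-cre (adjusted p = 0.0121) and by 0.85 ± 0.22 in GRMREmx1-cre (adjusted p = 0.0214), a departure of -2.76 ± 0.31 (adjusted p = 0.00259). No single array ended the call. Crnde lies 111 tested genes from Nr3c2, and the MR allele of GREmx1-cre and the loss of GR cannot be told apart for it.

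Syp and Ndufa9 departed by smaller amounts. For Syp, the synaptic vesicle protein synaptophysin, the levels were 4.14, 4.10 and 4.04 in GRMREmx1-cre, 4.44, 4.48, 4.48 and 4.51 in GREmx1-cre, 4.30, 4.39, 4.38 and 4.25 in MREmx1-cre, and 4.36, 4.39, 4.24 and 4.40 in dflox. GRMREmx1-cre was below all other arrays. Syp fell by 0.26 ± 0.05 in GRMREmx1-cre (adjusted p = 0.00574), and its departure was -0.37 ± 0.07 (adjusted p = 0.031). For Ndufa9, a subunit of respiratory complex I, the levels were 3.87, 4.0 and 3.97 in GRMREmx1-cre, 4.16, 4.22, 4.32 and 4.23 in GREmx1-cre, 4.08, 4.24, 4.22 and 4.29 in MREmx1-cre, and 4.08, 4.09, 4.05 and 4.20 in dflox. Its departure was -0.39 ± 0.08 (adjusted p = 0.0465), with -0.16 ± 0.06 in GRMREmx1-cre against dflox (adjusted p = 0.11). The call was lost in 9 fits without 1 array for Syp and in 13 for Ndufa9, under median scaling for both, and under quantile and cyclic loess normalization for Syp. Among genes with a mean level above 4 the median departure was -0.09.

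Tfap2b, a transcription factor of neural crest, lay below the sum and kept its call without any single array. Its levels were -4.84, -5.25 and -4.85 in GRMREmx1-cre, -4.02, -4.18, -4.0 and -3.75 in GREmx1-cre, -4.52, -4.35, -4.24 and -3.92 in MREmx1-cre, and -4.72, -4.79, -4.69 and -4.65 in dflox. Both single-loss lines were above dflox on every array, and GRMREmx1-cre was below it. Tfap2b rose by 0.72 ± 0.13 in GREmx1-cre (adjusted p = 0.0131), gave 0.45 ± 0.13 in MREmx1-cre (adjusted p = 0.0566) and -0.27 ± 0.14 in GRMREmx1-cre (adjusted p = 0.233), a departure of -1.45 ± 0.19 (adjusted p = 0.00536). The vomeronasal receptor gene Vmn1r47 (-1.19), the mesoderm factor Msgn1 (-1.16) and the olfactory receptor gene Olfr1143 (-1.23) had the same layout: higher in GREmx1-cre and in MREmx1-cre (adjusted p = 0.00237 to 0.0152 over the 6 comparisons) with changes of -0.01, 0.00 and -0.05 in GRMREmx1-cre. Ugt3a2, a glycosyltransferase, departed by -1.61, and Olfr127, Olfr288 and Olfr975 by -1.39, -1.25 and -1.15. All genes named in this paragraph had a mean level under -3 and so belong to the dim ones. Olfr401 also lay below the sum, but was not well above background on any GRMREmx1-cre or dflox array. Prrxl1, a sensory neuron homeobox gene, Hrg, a plasma glycoprotein, Myoz1, a muscle protein well above background on 1 of 3 GRMREmx1-cre arrays, and the interferon gene Ifna12 departed by -1.39, -1.33, -1.28 and -1.24. A second probe of Myoz1 gave a departure of -0.63, with -0.03 in GRMREmx1-cre against dflox where the first gave -1.09. The call was lost in 12 of the 15 fits without 1 array for Prrxl1, Hrg and Olfr975. For Myoz1 it was lost in 13, for Ifna12 in 8 and for Olfr401 in 2.

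Genes beside Nr3c2 made up a part of the departures. Of the 100 tested genes on either side of Nr3c2, 19 of 200 were called (9.5%), 5 above and 14 below the sum, against 0 of 200 beside Nr3c1 (limma, 26 at an unadjusted p under 0.05) and 164 of 15537 other named genes (1.06%). GREmx1-cre was the farthest group for 17 of the 19, again without a share over all genes. Farther out, in ranges chosen after the values were seen, 9 of 200 genes beyond 100 and up to 200 places away were called (4.5%) and 4 of 418 beyond that (0.957%). In the interaction, the MR allele that GREmx1-cre does not share with the other groups, with the strain DNA around it, cannot be told apart from the loss of GR for these genes. Fam32a had levels of 2.31, 2.42 and 2.38 in GRMREmx1-cre, 1.09, 1.39, 1.41 and 1.34 in GREmx1-cre, 2.14, 2.43, 2.45 and 2.37 in MREmx1-cre, and 2.35, 2.34, 2.36 and 2.42 in dflox. It was 2.08-fold lower in GREmx1-cre (adjusted p = 4.14e-05), with a departure of 1.08 ± 0.12 (adjusted p = 0.00259), and its second probe gave 0.04. Gadd45gip1, a mitochondrial ribosome protein, departed by -1.0 with one probe and by 0.82 with the other, and Slc35e1, a solute carrier, by -1.10 and 0.19. Rasd2, a striatal relative of Rasd1, lies 1 place from Nr3c2. Its levels were -1.45, -1.51 and -1.59 in GRMREmx1-cre, -1.02, -1.09, -1.20 and -1.07 in GREmx1-cre, -1.61, -1.76, -1.62 and -1.55 in MREmx1-cre, and -2.03, -1.85, -1.91 and -1.96 in dflox. It rose in every line, by 0.42 in GRMREmx1-cre, by 0.84 in GREmx1-cre and by 0.30 in MREmx1-cre (adjusted p = 0.00101, 2.92e-05 and 0.0104), and departed by -0.72 ± 0.09 (adjusted p = 0.0042). Zfp330 departed by -0.89 (second probe -0.23) and Ddx39a, an RNA helicase, by -0.48.

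**Figure D3:**
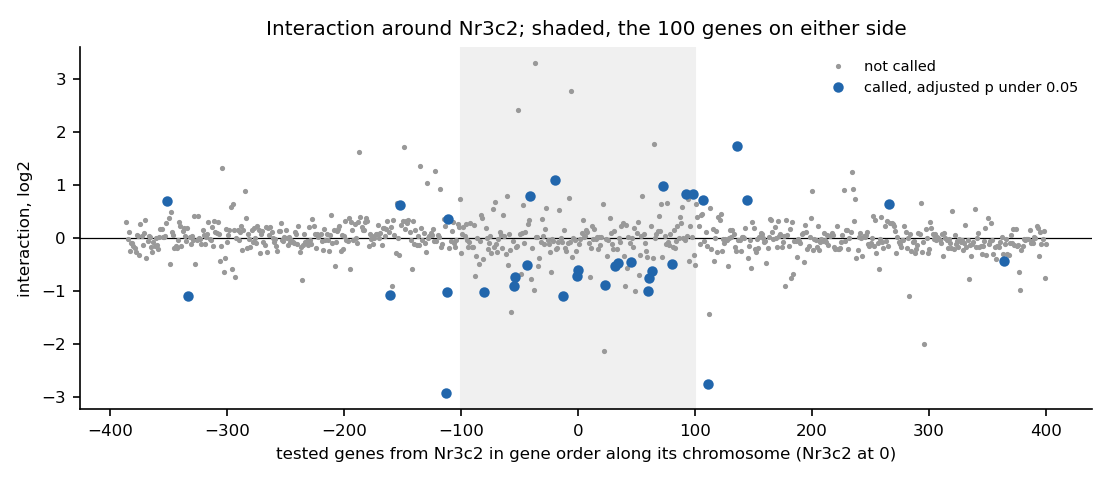
Departure (interaction, log2) of tested genes by their place in gene order from Nr3c2, at 0, for up to 400 genes on either side; the shaded band holds 100 genes on either side. Blue points are genes called at an adjusted p under 0.05: 19 lie in the band among the 200 neighbours and 4 lie farther than 200 places away.

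Additivity was called from the interval rather than from a missed threshold. In GRMREmx1-cre, 562 genes differed from dflox at an adjusted p under 0.05 and by at least 2-fold (461 higher, 101 lower). Of these, 31 were additive within 1.5-fold (24 rises and 7 falls), 23 departed (17 rises and 6 falls) and 508 could not be placed, 433 of them with a mean level under -3. Of the named additive genes, all but Olfr411 also changed in MREmx1-cre, and none but Nr3c1, Vwc2l and Olfr411 changed in GREmx1-cre.

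Calb1, the calcium buffer calbindin of granule cells, had levels of 1.91, 1.86 and 1.91 in GRMREmx1-cre, 3.49, 3.55, 3.5 and 3.45 in GREmx1-cre, 1.98, 2.32, 1.98 and 1.87 in MREmx1-cre, and 3.40, 3.53, 3.12 and 3.66 in dflox. All arrays lacking MR lay below all others. Calb1 was 2.89-fold lower in GRMREmx1-cre (-1.53 ± 0.12, adjusted p = 1.35e-05) and 2.62-fold lower in MREmx1-cre (adjusted p = 3.94e-05), with a departure of -0.22 and an interval of -0.57 to 0.13. Necab2, a calcium-binding protein of CA2 cells, fell by 1.02 in GRMREmx1-cre and by 1.0 in MREmx1-cre (adjusted p = 0.000902 and 0.00146), with a departure of -0.03 (interval -0.49 to 0.42). Mylk, the myosin light chain kinase, fell by 1.02 and 1.0 in the same lines (adjusted p = 0.000408 and 0.000724), with a departure of -0.0017 (interval -0.40 to 0.40), while its other probe gave -0.33 in GRMREmx1-cre and -0.20 in MREmx1-cre. C4bp, a complement inhibitor, fell by 1.19 and 1.34 in those lines (adjusted p = 0.000142 and 9.74e-05), with a departure of 0.02.

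Among the rises, Cdk18, a cyclin-dependent kinase of brain, had levels of 2.80, 3.03 and 2.99 in GRMREmx1-cre, 1.51, 1.83, 1.75 and 1.77 in GREmx1-cre, 2.77, 2.75, 2.89 and 2.74 in MREmx1-cre, and 1.72, 1.57, 2.04 and 1.81 in dflox. Here too both lines lacking MR stood apart from the other groups. Cdk18 was 2.23-fold higher in GRMREmx1-cre (1.15 ± 0.11, adjusted p = 5.74e-05), with a departure of 0.22 (interval -0.09 to 0.54). Hkdc1, a hexokinase-like enzyme, rose by 1.22 in GRMREmx1-cre and by 1.22 in MREmx1-cre (adjusted p = 8.9e-05 and 0.000119), with a departure of 0.00 (interval -0.36 to 0.37). The keratin genes Krt10 and Krt2 were 4.40-fold and 2.53-fold higher in GRMREmx1-cre (adjusted p = 1.31e-05 and 7.96e-05), with departures of -0.06 (interval -0.54 to 0.42) and 0.19 (interval -0.20 to 0.58).

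A sum of 2 measurable single rises was seen for Vwc2l, a secreted von Willebrand factor C domain protein. It rose by 1.12 ± 0.11 in GRMREmx1-cre, by 0.61 ± 0.10 in GREmx1-cre and by 0.71 ± 0.10 in MREmx1-cre (adjusted p = 7.45e-05, 0.00846 and 0.00144), with a departure of -0.20 (interval -0.52 to 0.12), although only 1 of 4 dflox arrays was well above background. Olfr411 rose by 1.17 in GRMREmx1-cre and by 0.66 in GREmx1-cre (adjusted p = 0.000235 and 0.0203) and gave 0.39 in MREmx1-cre (adjusted p = 0.0979), with a departure of 0.13 (interval -0.29 to 0.55). Prss45, a serine protease, was at least 2.0-fold higher in GRMREmx1-cre than in dflox and at least 1.69-fold higher than in GREmx1-cre, and as neither GREmx1-cre nor dflox had it well above background on any array, its place among the additive genes rests on bounds. Adgrg5, an adhesion receptor of leukocytes, rose by 1.23 in GRMREmx1-cre (adjusted p = 0.000951), with a departure of -0.01 (interval -0.56 to 0.55). It lies 142 places from Nr3c2.

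**Figure D4:**
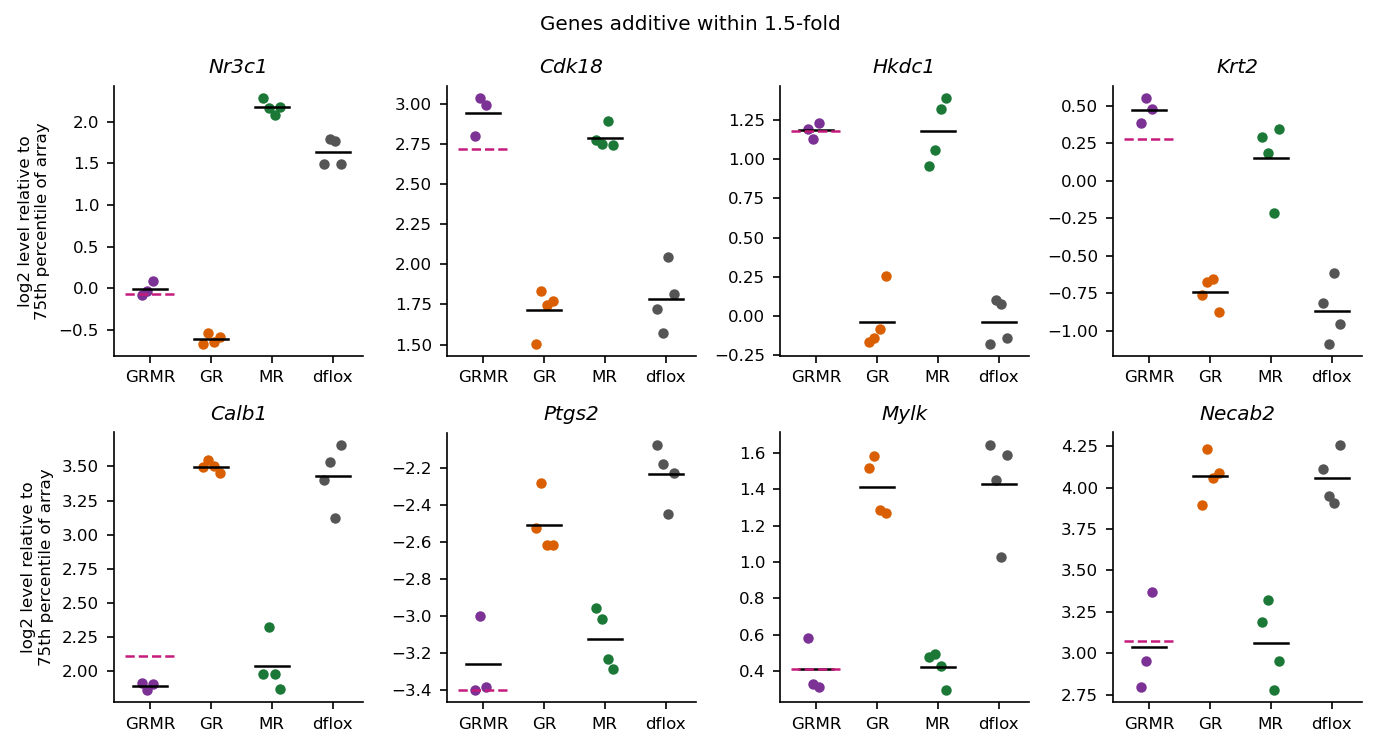
Log2 level relative to the array's 75th percentile for Nr3c1 and 7 genes of the additive class, 1 point per array in GRMR (GRMREmx1-cre), GR (GREmx1-cre), MR (MREmx1-cre) and dflox, with black bars at the group means. The dashed line is the level expected from the sum of the single changes, and the departures from it run from -0.22 (Calb1) to 0.22 (Cdk18).

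Lists of cell type markers gave mostly small departures. Of 21 microglia markers, 15 rose in GRMREmx1-cre (all genes: 11.4%) and 7 in MREmx1-cre (all genes: 4.21%). In GREmx1-cre 1 (C1qc) rose and 1 (Gpr34) fell (all genes: 2.27% and 0.892%). The median changes were 0.37 in GRMREmx1-cre, 0.11 in GREmx1-cre and 0.21 in MREmx1-cre. The median departure was 0.04, the interval lay within 1.5-fold for 11 of the 15, and only Gpr34 departed. Fcrls, an Fc receptor-like protein of microglia, rose by 0.66 in GRMREmx1-cre and by 0.59 in MREmx1-cre (adjusted p = 0.00107 and 0.00297), with a departure of -0.22 (interval -0.52 to 0.08). Trem2, a lipid-sensing receptor, rose by 0.51 in GRMREmx1-cre and by 0.29 in MREmx1-cre (adjusted p = 0.000655 and 0.0212), with a departure of -0.03 (interval -0.24 to 0.19).

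Of 13 dentate granule cell markers, 12 had a negative departure, with a median of -0.25 (-0.39 without dflox replicate 2). In GRMREmx1-cre 6 fell (all genes: 4.84%) and 1 (Rasl10a) rose (all genes: 11.4%). In MREmx1-cre 5 fell (all genes: 2.6%) and 1 (Rasl10a) rose (all genes: 4.21%). The list's mean was -0.35, -0.40 and -0.61 in GRMREmx1-cre, 0.55, 0.28, 0.32 and 0.21 in GREmx1-cre, -0.28, -0.25, -0.21 and -0.15 in MREmx1-cre, and 0.25, 0.46, 0.02 and 0.16 in dflox. GRMREmx1-cre was below every other array. Dsp, the desmosome protein desmoplakin, was named after its values were seen: it was 8.09-fold lower in GRMREmx1-cre and 5.57-fold lower in MREmx1-cre (adjusted p = 7.2e-07 and 3.14e-06), with a departure of -0.45 (interval -0.87 to -0.02, adjusted p = 0.268).

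Of 8 CA1 pyramidal cell markers 0 were called in limma, with 2 at an unadjusted p under 0.05, and their median departure was -0.15, with -0.05 under quantile normalization, -0.08 without GRMREmx1-cre replicate 1 and -0.09 without dflox replicate 3. Of 10 CA2 markers 6 fell in GRMREmx1-cre (all genes: 4.84%) and 6 in MREmx1-cre (all genes: 2.6%), with a median departure of 0.00. Of 21 glutamatergic synapse genes 8 fell in GRMREmx1-cre (all genes: 4.84%) and 3 in MREmx1-cre (all genes: 2.6%). Their median departure was -0.14, with -0.04 under quantile normalization and -0.07 without GREmx1-cre replicate 1, and 18 intervals lay within 1.5-fold. Of 21 respiratory chain genes, 21 had a negative departure with a median of -0.17 (-0.17 to -0.06 under the other scalings), 21 intervals lay within 1.5-fold, and Ndufa9 was the 1 called. Oligodendrocyte and myelin genes had a median of -0.23 and 0 called of 15, with 2 at an unadjusted p under 0.05. That median was -0.12 under quantile normalization, -0.14 without MREmx1-cre replicate 3 or GRMREmx1-cre replicate 2, and -0.09 without dflox replicate 4. Choroid plexus genes had a median of 0.52 with 14 of 14 positive and 0 at an unadjusted p under 0.05, which turned to -0.56 with 0 positive without MREmx1-cre replicate 2.

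**Figure D5:**
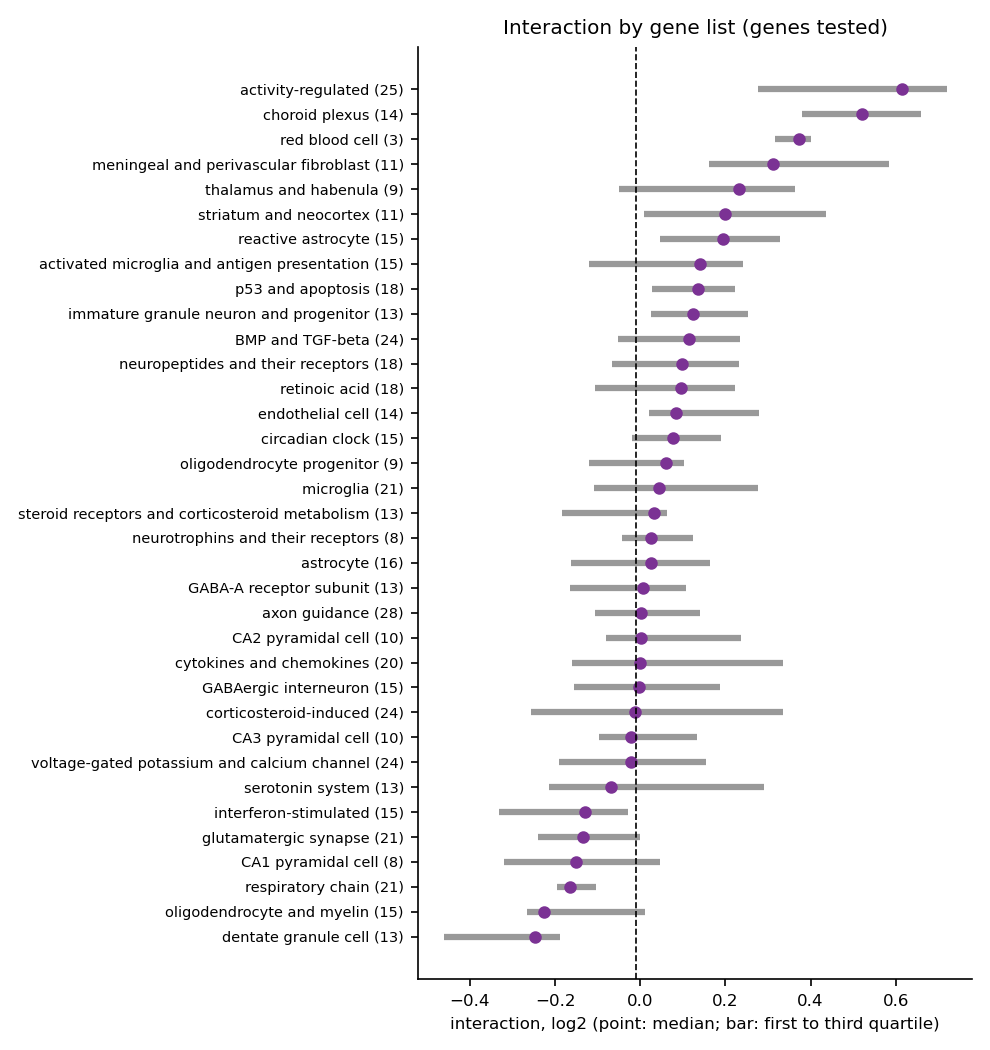
Departure (interaction, log2) by gene list, with the number of genes tested in brackets; points are medians, bars run from the first to the third quartile, and the dashed line is the median of all genes (-0.01). The activity-regulated list has the highest median (0.62) and the dentate granule cell list the lowest (-0.25); the choroid plexus list (0.52) turns negative without 1 array.

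Several genes with large joint falls were named after their values were seen, and for some of them the departure lay close to the threshold. Spink8, a CA1 marker and protease inhibitor, had levels of -0.94, -1.06 and -1.07 in GRMREmx1-cre, 2.98, 2.74, 2.82 and 2.65 in GREmx1-cre, -0.06, 0.61, 0.94 and 0.10 in MREmx1-cre, and 3.0, 2.67, 1.76 and 2.93 in dflox. As for Rasd1, GRMREmx1-cre lay below MREmx1-cre without overlap, and GREmx1-cre overlapped with dflox. Spink8 was 12.2-fold lower in GRMREmx1-cre and 4.57-fold lower in MREmx1-cre (adjusted p = 1.35e-05 and 0.00052), with a departure of -1.63 ± 0.38 (adjusted p = 0.0581). Lefty1, a Nodal antagonist, was 4.08-fold lower in GRMREmx1-cre and 2.07-fold lower in MREmx1-cre (adjusted p = 0.000138 and 0.00984), with a departure of -1.13 ± 0.30 (adjusted p = 0.0891). Galnt17, a glycosyltransferase, was 2.72-fold lower in GRMREmx1-cre and 2.07-fold lower in MREmx1-cre (adjusted p = 1.76e-06 and 3.94e-05). Its departure of -0.51 ± 0.11 (adjusted p = 0.0489) was similar for its 4 probes (-0.52 to -0.46), but was lost in 14 fits without 1 array. Etnppl, a phospholyase of astrocytes, fell by 3.64 in GRMREmx1-cre and by 3.11 in GREmx1-cre (adjusted p = 7.36e-05 and 0.000562), with a departure of 0.61 whose interval, -0.43 to 1.64, was too wide to place it.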

How the data were processed

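Hippocampal RNA of 15 mice (3 GRMREmx1-cre and 4 of each other genotype) was hybridised to 15 single-colour Agilent arrays. The arrays were read with Agilent Feature Extraction 12.0, as the submitters' processing notes state. The processed signal used here is an intensity that the scanner software had corrected for background, per the file headers, and flags (other values, 0 or 1) mark spots well above background and outliers. The authors' deposited series table held the same intensity at 45018 of 45018 spots on every array.

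Intensities were put on the log2 scale, the 75th percentile of each array's spots that are not controls was subtracted, outlier spots were left out and spots of a probe averaged (41174 probes). Names came from a RefSeq table (GRCm38.p6) by accession: 28223 probes had 1 symbol, 0 several and 12951 none. A probe was tested when 3 or more arrays had it well above background (30871 probes), with the probe of highest mean per gene (22862 genes). Where no array of a group had a gene well above background, a fold is written "at least". The brighter group's mean was then divided by a floor averaged over the dim arrays, each at the larger of its lowest detected signal and the gene's signal. The number of arrays limits the precision.

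A group means model of all 15 arrays was fitted in limma 3.58.1 (R 4.3.3, lmFit and eBayes), with Benjamini-Hochberg adjustment at 0.05 over all genes. The fit was also run on simulated data with independent noise. These held no effect of slide or replicate number, so that the run does not check for such effects. A gene was additive when GRMREmx1-cre differed from dflox at that threshold and by at least 2-fold while the 95% interval of the departure lay within 1.5-fold. Named genes are Nr3c1 and Nr3c2, the 15 highest and 15 lowest departures past the threshold among genes with a symbol, well above background on every array of a group and not neighbours of a receptor gene, up to 6 neighbours of each receptor gene, the 8 largest additive changes in each direction, and per list up to 4 departing and 3 additive members. Members and lists were chosen with earlier results of these data known. The genes Galnt17, Spink8, Lefty1, Fkbp5, Etnppl and Dsp, and list members given with values, were named with their values seen. Alternatives were other scalings, background correction, filters, probe rules, variance models, the linear scale, array weights, the replicate number as a block, and leaving out arrays or genes. Background correction by normexp used the median spot signal, since the mean was not in the files. Some results are not reported here. Plots used matplotlib 3.10.9 under Python 3.11.15.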

Additional observations from a re-analysis of the deposited data

Results flagged for a closer look

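For the 295 genes past the interaction test, the joint change departed from the sum of the single changes. Receptor loss, slide, Cre and, at or beside Nr3c2, the MR allele cannot be told apart there. Among 291 groups of 4 arrays examined for an array standing apart from its group by Dixon's criterion, 11 had one, and chance flags about 1 in 20 groups.

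Among genes, Chrdl1 in dflox replicate 1 was the lowest of its group at -2.52 and Gpr34 in the same array the lowest at -1.11 (log2 levels). Without that array the calls of both genes held. Zfp330 in GREmx1-cre replicate 3 was the lowest at 2.64, Olfr1044 in MREmx1-cre replicate 2 the highest at -7.43, and Myoz1 in MREmx1-cre replicate 4 the highest at -5.45.

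Among list means relative to all arrays, GREmx1-cre replicate 1 stood apart from its group for 4 lists. It was the highest for thalamus and habenula genes (0.528) and for CA2 pyramidal cell genes (0.535), and the lowest for meningeal and perivascular fibroblast genes (-0.413) and for BMP and TGF-beta genes (-0.0685). MREmx1-cre replicate 1 was the lowest for respiratory chain genes (-0.105), and dflox replicate 4 the highest for steroid receptor and corticosteroid metabolism genes (0.0461).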

How the results depend on the processing

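The joint loss rests on 3 mice, and the counts of departing genes moved with single arrays. Leaving out 1 array gave 83 to 434 departing genes in place of 295 and 14 to 43 additive genes in place of 31. Fewer genes departed with median scaling (182), no filter on dim probes (138), both arrays that stand apart left out (178) and the 200 genes on either side of Nr3c2 left out (189, all among the 295). More departed on the linear scale (478) and with array weights (825, 294 of them among the 295). Leaving out genes with a mean level under -3 gave 232 departing and 16 additive genes. Normexp background correction left 1 departing and 5 additive genes. Its fitted background mean lay at -30.19, -803.9 and -106.7 on the GRMREmx1-cre arrays, against 1.063 to 3.21 on the others, and 6 to 14 spots of those arrays were dimmer than their local background, against 0 or 1. Without such spots normexp gave 194 departing genes, 139 of them among the 295. The settings with both arrays, dim genes, dim spots or the 200 genes left out, and cyclic loess (315), were chosen after seeing the data. Apart from fewer samples or genes where these were left out, the cause of the moved counts was not tested. Of 62 named genes, 60 kept direction and side of the threshold under quantile normalization, 59 under cyclic loess, 53 under median scaling, 55 with an intensity trend, 53 with the mean of a gene's probes and 44 with no filter, and the others of these settings lost their call.

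Under normexp with all spots the departure changed sign for Nr3c2 (0.68), Crnde (0.16), Olfr401 (1.26), Ugt3a2 (0.73), Tfap2b (0.75), Olfr127 (1.01), Prrxl1 (0.94), Hrg (0.78), Myoz1 (1.16), Olfr288 (0.95), Ifna12 (1.17), Olfr1143 (0.65), Vmn1r47 (0.65), Msgn1 (1.17) and Olfr975 (0.98), where the median over all genes moved to 0.39. On the linear scale Nr3c1 departed by -1.05 scaled intensity units (adjusted p = 0.0365). Same-numbered arrays of different groups correlated between -0.03 and 0.20 in their deviations from group means (21 pairs, median 0.07). Arrays of different numbers correlated between -0.15 and 0.11 (63 pairs, median -0.02), and 14 of 15 arrays correlated best with an array of their own number. The numbers are slide positions, and nothing states that they pair the mice. What arrays of the same number share was not tested. With the replicate block 307 genes departed, 210 of them among the 295, and 31 were additive. Of the named genes, Rasd1, Fosb, Vim, Syp, Nr3c2, Olfr73, Plcz1, Prodh2 and Prrxl1 were not called with the block.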

Other observations

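Outside the lists and the naming rule, several departures kept their call in each fit that left out 1 array, and were picked here after their values were seen. Above the sum, Cep20, a centrosome protein, departed by 0.85 (adjusted p = 0.00517) and the zinc finger gene Zfp980 by 0.77 (adjusted p = 0.00829). Below the sum, Rgs3, a regulator of G protein signalling, departed by -0.65 (adjusted p = 0.0104), Tnfrsf1b, a receptor for tumour necrosis factor, by -0.71 (adjusted p = 0.0139), Hes2, a Hes family repressor, by -0.72 (adjusted p = 0.0104) and Psmd9, a proteasome assembly chaperone, by -0.40 (adjusted p = 0.00829). Of the 69 genes that kept their call throughout, 42 had a symbol, 10 were among the neighbours of Nr3c2 and 38 had a mean level under -3.

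In cytokine and chemokine genes other than Ccl17, Cxcl5 rose by 2.58 in GRMREmx1-cre (adjusted p = 0.00149) with a departure of 2.55 that missed the threshold (adjusted p = 0.0511). Ccl4 rose by 1.21 in GRMREmx1-cre (adjusted p = 0.000939), with a departure of 0.71 (adjusted p = 0.167). Among reactive astrocyte genes, S100a10 rose by 1.06 in GRMREmx1-cre and by 0.67 in GREmx1-cre (adjusted p = 3.08e-05 and 0.00194), with a departure of 0.45 (adjusted p = 0.0891).

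The transcript D130040H23Rik, 113 places from Nr3c2 in gene order, had a departure of -2.92 with GREmx1-cre the farthest group.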
